A study of Mus musculus with 20 samples.

Results

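The hippocampal transcriptome of mice lacking the microRNA miR-34a, without any amyloid transgene, was compared with that of mice carrying the microRNA. The comparison comprised 10 of the 20 mice of the series, 5 miR-34a KO Non-Tg mice (numbers 1, 2, 4, 7 and 8) and 5 miR-34a WT Non-Tg mice (numbers 2, 3, 4, 6 and 7), which were chosen by their genotype and transgene labels alone. All 10 were female C57BL/6 mice of about 1 year, had no APP transgene, and came from the cross of Tg-SwDI mice with the Mir34a tm1Lhe line, in which the microRNA is absent from the whole body from conception. RNA was taken from the left hippocampus after behavioural testing and perfusion with PBS, 1 library per mouse. The other 10 mice (WT and KO, 5 each, both Tg-SwDI, carrying human APP with the Swedish, Dutch and Iowa mutations under the Thy1 promoter) entered the model fits and served as a second look at the same gene deletion. The deletion was constitutive and in every tissue, so a hippocampal difference cannot be assigned to a cell type or an age, and the p-values measure the spread between littermate mice of 1 colony.

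MicroRNAs are short RNAs that guide Argonaute proteins to messenger RNAs, mostly through pairing between the seed of the microRNA and the 3'UTR, and thereby lower the stability and translation of those messengers. miR-34a is induced by p53 and is known for restraining proliferation, Notch signalling, Sirt1 and Bcl2, and in brain it has been linked to ageing, synaptic proteins and microglial activity. Its family shares a seed, so that the absence of miR-34a leaves other microRNAs able to pair with the same sites. The mature sequences of 4 family members, as held in RefSeq, are shown because that shared seed (bases 2 to 8, in capitals) defines the target sites counted further on.
mmu-miR-34a-5p: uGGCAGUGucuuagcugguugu
mmu-miR-34b-5p: aGGCAGUGuaauuagcugauugu
mmu-miR-449a-5p: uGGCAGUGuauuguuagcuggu
mmu-miR-449c-5p: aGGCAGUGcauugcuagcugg
All 4 sequences, from RefSeq on GRCm38.p6, carried the seed GGCAGUG. miR-34a-5p lies on the plus strand at chr4:150068473-150068494, miR-34b-5p on the minus strand of chromosome 9, and miR-449a-5p and miR-449c-5p on the plus strand of chromosome 13. miR-34c-5p is a further family member.

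Counts per library were alike, between 19929829 and 21066868 in the WT and between 20762832 and 20869357 in the KO mice, with normalization factors of 0.995 to 1.016. Mir34a itself had no row in the table, so the deletion could not be read from the targeted gene. As a check of the transgene labels, the 10 Non-Tg mice had 684 to 769 CPM (counts scaled to library size) of Thy1, the gene that lends the transgene its promoter, against 1900 to 3320 CPM in the 10 mice carrying it. Libraries differed in transcripts of tissues that border the hippocampus, and these values are given first because they touch the results.

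Choroid plexus genes differed widely between KO and WT Non-Tg mice, and 3 of the 5 WT libraries carried the difference. Ttr, the thyroxine carrier that the choroid plexus epithelium makes in abundance, measured 1690, 127, 2850, 29.8 and 3900 CPM in WT mice 2, 3, 4, 6 and 7, and 31.4, 277, 60.8, 151 and 85.7 CPM in KO mice 1, 2, 4, 7 and 8. WT mice 2, 4 and 7 stood above every KO mouse, whereas WT 3 and WT 6 lay within or below the KO range. On the log2 scale Ttr averaged 6.54 ± 1.2 in KO and 9.20 ± 3.09 in WT mice (SD, n = 5 each), a difference of -2.67 that did not pass an exact two-sided permutation test (p = 0.127, where 0.00794 is the smallest this design allows). Between the extreme libraries Ttr differed by 131 times and took between 0.00298% and 0.394% of all counts.

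The other choroid plexus genes were high in the same 3 WT mice. Folr1, the folate receptor of this epithelium, measured 13.2, 1.04, 22.4, 0.699 and 29.3 CPM in the WT and 0.669, 2.99, 0.675, 1.97 and 1.16 CPM in the KO mice. Kl, which encodes klotho, measured 98.3, 26, 146, 23.1 and 190 CPM in the WT and 23, 36.4, 27.8, 27.9 and 26.1 CPM in the KO mice. In both genes WT 2, 4 and 7 were high and the remaining mice overlapped. All 24 listed choroid plexus epithelium genes passed the low-count filter, all 24 had negative log2 fold changes, and their median was -2.33, against 0.00 over all 16107 genes tested. In 23 of the 24, WT 2, 4 and 7 lay above each of the other 7 mice, and without WT 2, 4 and 7 the median was 0.48. Those mice were picked for these levels, so that an upward shift of the median was fixed by the choice. Summed over the list, the level ran from 373 to 7280 CPM in the WT and from 362 to 834 CPM in the KO mice. Among the Tg-SwDI mice it was 483 CPM in WT 7, 487 CPM in KO 2 and 3560 to 6070 CPM in the others. High levels were thus common in the series, and no KO Non-Tg mouse had them. In bulk tissue, fewer cells of a type and less RNA per cell cannot be told apart. The amount of neighbouring tissue taken at dissection was not measured other than by these transcripts.

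**Figure D1:**
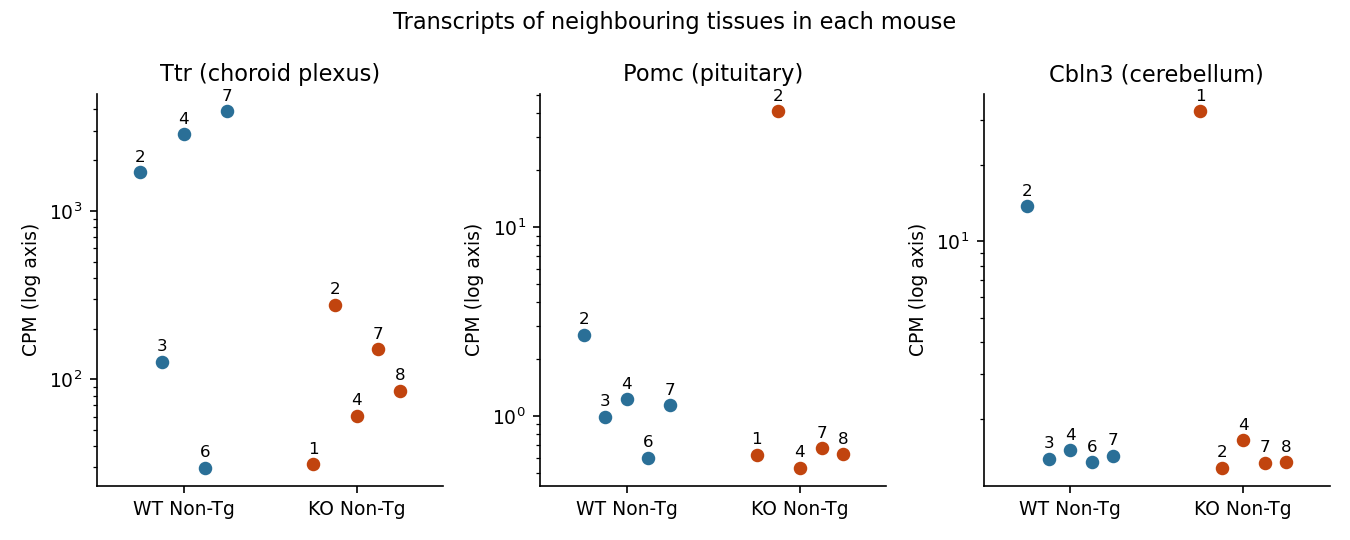
CPM on log axes of Ttr (choroid plexus), Pomc (pituitary) and Cbln3 (cerebellum) in each WT Non-Tg mouse (blue) and KO Non-Tg mouse (red), 1 point per mouse with its number. WT 2, 4 and 7 stand at 1690 to 3900 CPM of Ttr, KO 2 stands alone at 40.9 CPM of Pomc, and WT 2 and KO 1 stand at 13.7 and 32.4 CPM of Cbln3.

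Pituitary and cerebellar transcripts marked other libraries. Prl, the pituitary hormone prolactin, had 343, 27, 75, 9 and 38 counts in the WT mice and 2, 5214, 1, 0 and 1 in the KO mice. Growth hormone (Gh) had 3447 counts in KO 2 and 0 in the other 4 KO mice, with 0 to 91 in the WT mice. Pomc, the precursor of corticotropin, measured 40.9 CPM in KO 2 and 0.530 to 2.69 CPM in the remaining 9 mice. Cbln3 and Gabra6, which are genes of cerebellar granule cells, were high in KO 1 and WT 2. Cbln3 measured 32.4 CPM in KO 1, 13.7 CPM in WT 2 and 1.28 to 1.64 CPM in the other 8 mice. Of 10 cerebellar genes, listed after these values were seen, 9 had positive log2 fold changes with a median of 0.26, which was -0.01 with the Ttr covariate, and 0 had p under 0.05. Counts over all genes and several list medians are therefore given with and without KO 1 and 2 or WT 2, 4 and 7.

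Across all genes, the loss of miR-34a in Non-Tg mice gave no call in the fit of all 20 mice. By edgeR's quasi-likelihood test, 0 of 16107 genes passed a Benjamini-Hochberg FDR of 0.05 (0%), and the lowest FDR was 0.259. At an unadjusted p under 0.05, 576 genes (3.58%) were higher and 726 (4.51%) lower in the KO mice. DESeq2 on the same genes called 7. Without KO 1 and 2, and without WT 2, 4 and 7, the count at the FDR threshold was 0 as well. The latter fit kept WT 3 and 6 as the only WT Non-Tg mice. In it 509 of 16559 genes had an unadjusted p under 0.05.

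The size of the differences that these 10 mice could show was small for most genes. The median absolute log2 fold change was 0.07, and 90% of genes lay under 0.27. The median half-width of the 95% confidence interval was 0.18 on the log2 scale. For 12464 genes (77.4%) the whole interval lay within ±0.5, and for 15206 (94.4%) within ±1. Of the 142 genes with an absolute log2 fold change over 1, 132 were lower in the KO mice, and 102 of those 132 also followed the Ttr level of the libraries.

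That dependence was measured by adding the log2 Ttr level of each library to the model. Of 16106 genes, Ttr itself left out, 424 (2.63%) rose with Ttr and 21 (0.130%) fell with it at an FDR under 0.05 by edgeR's quasi-likelihood test. All 24 choroid plexus epithelium genes had a called slope, a count that holds Ttr, whose slope on itself was fixed in advance. With the covariate, 0 of 16106 genes (0%) were called for genotype and the lowest FDR was 1. At an unadjusted p under 0.05, 266 genes (1.65%) were higher and 297 (1.84%) lower, 563 in all against 1302 without the covariate. The median of the choroid plexus epithelium list moved from -2.33 to -0.12, where the second value leaves out Ttr. That of 11 genes of ependymal and other ciliated cells moved from -0.50 to -0.19, and that of all genes remained at 0.00. Rsph1, a radial spoke component of motile cilia, may stand for the ciliated genes, with 5.58, 3.22, 6.19, 2.95 and 7.15 CPM in the WT and 2.34, 3.89, 3.18, 3.74 and 3.14 CPM in the KO mice. It too was highest in WT 2, 4 and 7, and its log2 fold change of -0.63 became -0.28 with the covariate and 0.08 without those mice, where the median of the ciliated genes was also 0.08. Leaving out the highest WT mice fixed the direction of that last shift.

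**Figure D2:**
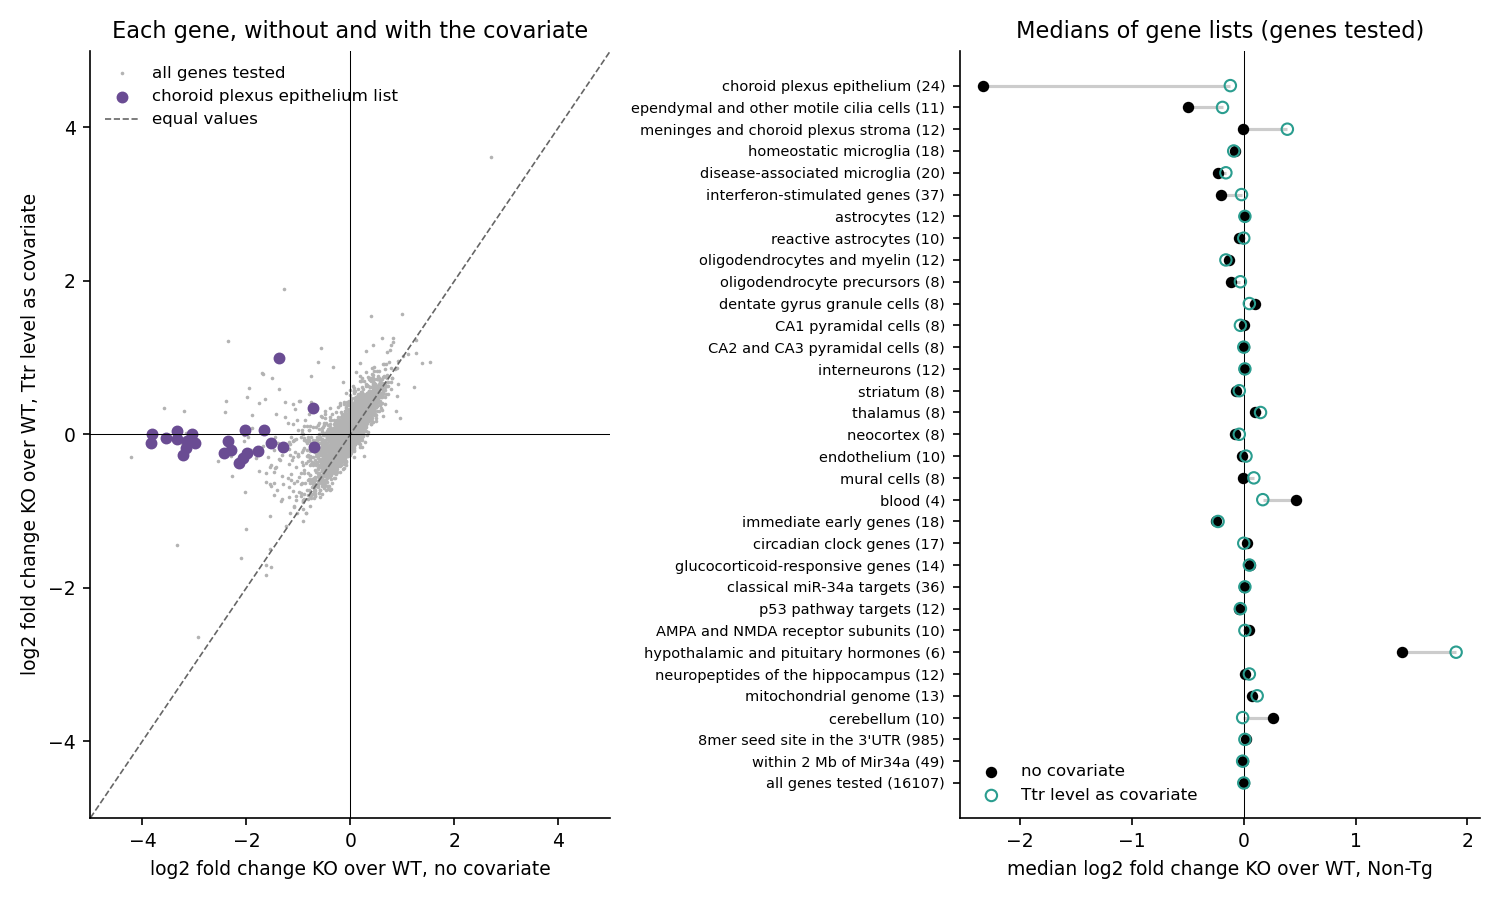
Left, log2 fold change KO over WT in Non-Tg mice of each gene without (x axis) and with (y axis) the Ttr level as a covariate, with the choroid plexus epithelium genes in purple (2 genes lie outside the limits of ±5). Right, median log2 fold change of each gene list without (black) and with (open) the covariate, with the number of genes tested. The choroid plexus list moves from -2.33 to -0.12 (the second value without Ttr), while the neuronal, astrocyte and miR-34a target lists lie near 0 in both.

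No gene having been called, the genes of lowest p are given with their values. Taok1, a kinase of MAP kinase and microtubule regulation, measured 130, 141, 139, 151 and 158 CPM in the WT and 175, 166, 165, 175 and 170 CPM in the KO mice. Its log2 fold change was 0.24 (SE 0.05, FDR 0.413 by edgeR's quasi-likelihood test), and the KO mice lay above the WT mice without overlap. Luzp2, a leucine zipper protein, measured 188, 171, 177, 185 and 184 CPM in the WT and 222, 214, 219, 213 and 206 CPM in the KO mice. The groups did not overlap and the log2 fold change was 0.25 (SE 0.06).

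Pde10a, a phosphodiesterase of cAMP and cGMP best known from striatal neurons, measured 75.0, 78.3, 72.4, 81.6 and 78.1 CPM in the WT and 86.6, 84.6, 102, 99.3 and 85.7 CPM in the KO mice. KO 4 and KO 7 were the highest, and the log2 fold change was 0.25 (SE 0.06). Grik2, a subunit of kainate receptors, measured 73.6, 82.4, 75.1, 80.4 and 75.7 CPM in the WT and 92.3, 87.7, 85.9, 94.3 and 84.9 CPM in the KO mice, again without overlap, with a log2 fold change of 0.20 (SE 0.05). The other genes of this kind were Bclaf1 (0.20), a nuclear RNA-binding protein, the dynein adaptors Hook3 (0.22) and Bicd1 (0.21), and Mctp1 (0.20), a calcium-binding membrane protein. In all 8 the KO mice lay above the WT mice, but 215 genes (1.33% of those tested) did so and 144 (0.894%) had all KO mice below all WT mice. With the Ttr covariate the 8 log2 fold changes lay between 0.15 and 0.19.

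Among genes with lower values in the KO mice, Shroom3, an actin-binding protein of epithelial cell shape, had the lowest p of all genes, with 4.68, 3.67, 4.74, 4.05 and 5.63 CPM in the WT and 2.72, 2.70, 3.04, 2.68 and 3.24 CPM in the KO mice. The groups did not overlap, the log2 fold change was -0.66 (SE 0.13, FDR 0.259 by edgeR's quasi-likelihood test), and it was -0.49 with the Ttr covariate. Ptpn18, a tyrosine phosphatase, measured 2.60, 1.29, 2.16, 1.35 and 2.05 CPM in the WT and 1.05, 0.948, 0.675, 1.01 and 0.870 CPM in the KO mice. Its log2 fold change of -1.05 (SE 0.21) was -0.80 with the covariate.

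Litaf, a protein of late endosomes and lysosomes, measured 21.5, 19, 23.4, 21.1 and 17 CPM in the WT and 16.9, 15.1, 16.8, 14.6 and 16.4 CPM in the KO mice. WT 7 and KO 1 almost met, and the log2 fold change was -0.35 (SE 0.08), or -0.39 with the covariate. Slc11a1, a metal ion transporter of phagocyte lysosomes, measured 4.49, 3.02, 3.57, 3.25 and 3.77 CPM in the WT and 2.82, 1.94, 2.56, 2.44 and 1.93 CPM in the KO mice, with a log2 fold change of -0.63 (SE 0.14). Of the remaining 4 genes, Rassf9 (-0.74), Rbm28 (-0.21), a nucleolar protein, and the class I myosin Myo1e (-0.30) had no overlap between groups, whereas in 1700007K13Rik (-0.93) WT 6 lay within the KO range. DESeq2 called Shroom3, Ptpn18, 1700007K13Rik, Litaf, Taok1, Bclaf1 and the microglial receptor Clec7a, each at an adjusted p of 0.0323.

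**Figure D3:**
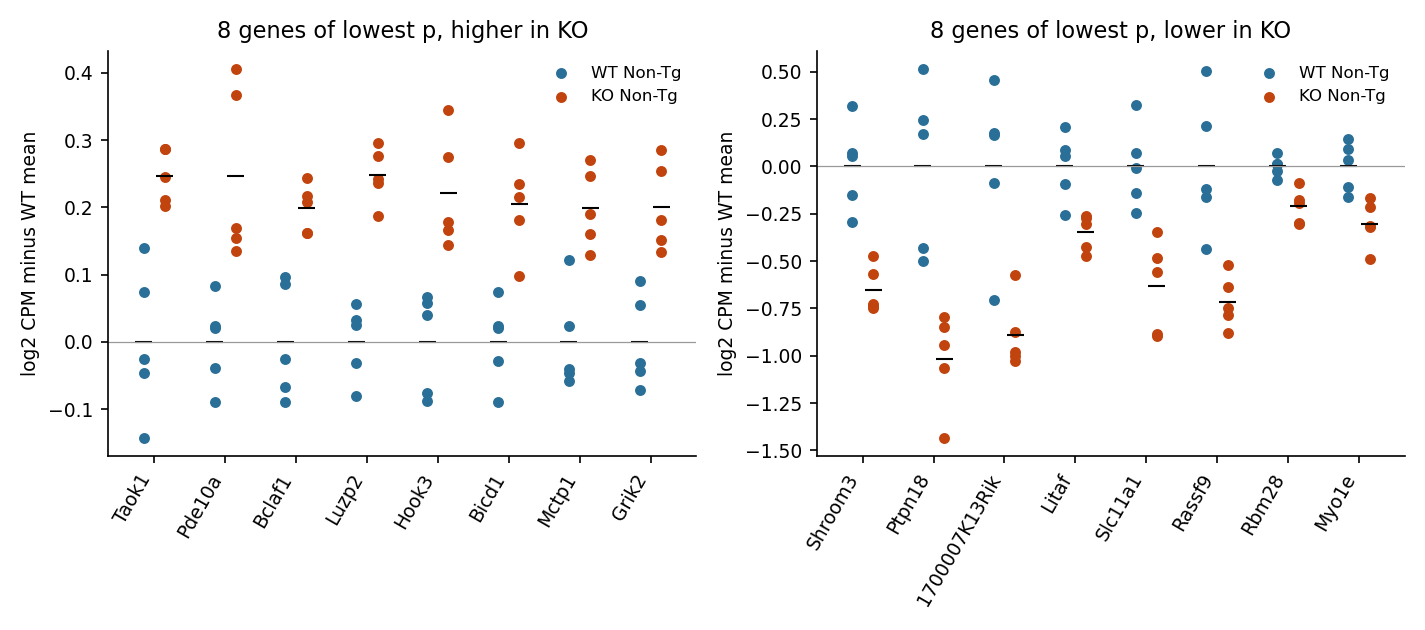
Log2 CPM of each mouse minus the mean of the WT Non-Tg mice for the 8 genes of lowest p in each direction by edgeR's quasi-likelihood test, with WT in blue, KO in red and group means as black bars. Taok1 lies 0.24 and Luzp2 0.25 above the WT mean, Shroom3 0.66 and Ptpn18 1.05 below it by the fitted values, and the scales of the panels differ.

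With the covariate, the lowest p among lower genes belonged to Litaf (log2 fold change -0.39, FDR 1 by edgeR's quasi-likelihood test). Genes that entered the lowest ranks with the covariate alone were Gh, Zfp944, Dolpp1 and 4931415C17Rik among higher and Fam78a, Gpr84 and Med8 among lower genes. The fitted value of Gh rested on KO 2 and changed sign without it. Zfp944, a zinc finger protein, measured 14, 13, 14.3, 12.3 and 12.9 CPM in the WT and 16.9, 14.5, 14.9, 16.8 and 15.5 CPM in the KO mice. The groups stood apart by little, with a log2 fold change of 0.29 under the covariate and 0.24 without it. Gpr84, a fatty acid receptor of myeloid cells, measured 3.21, 1.14, 1.60, 1.15 and 1.81 CPM in the WT and 0.956, 0.569, 0.868, 1.15 and 0.822 CPM in the KO mice. WT 2 was the highest, WT 3 and 6 met KO 7, and the log2 fold change was -1.03 with and without the covariate.

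The pairwise test that the study's methods name, edgeR's exactTest, was run on the 10 Non-Tg mice with their own dispersions and gave calls in both directions. Of 15541 genes, 67 (0.431%) were higher and 67 (0.431%) lower in the KO mice at an FDR under 0.05. At the same threshold the study reported fewer genes for this comparison, most of them lower in the KO mice. Higher genes had a median log2 fold change of 0.19 (range 0.13 to 0.49), and 48 of the 67 had no overlap between groups. Lower genes had a median of -0.93 (range -4.21 to -0.16), 21 of the 67 had no overlap, and 16 were on the choroid plexus epithelium list. Of the lower genes 34, Ttr itself included, had a called slope on Ttr, against 1 of the higher genes. In the fit of all 20 mice 130 of the 134 had an unadjusted p under 0.05, against 1302 of all 16107 genes. With the Ttr covariate 42 of the higher and 34 of the lower genes did, against 563 of 16106. The 134 were chosen on these same Non-Tg mice, so neither count is independent of the calls. Leaving out 1 mouse moved the count by over 1.5 times for 9 of the 10 mice. It was 8 without WT 4, 11 without KO 7, 14 without WT 2, 17 without KO 4, 36 without KO 8 and 48 without KO 1, but 278 without WT 6, 307 without WT 7 and 309 without WT 3, and it was 177 without KO 2, of which 109 were among the 134. Without WT 2, 4 and 7 it was 33, of which 11 were among the 134, and without KO 1 and 2 it was 95, of which 41 were. By the quasi-likelihood test on the same 10 mice 1 gene, Luzp2, was called.

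The genes called higher by exactTest were of long transcripts. Their median transcript length was 8564 bases and their median GC content 42.6%, against 2867 bases and 49.7% for the genes called lower and 3354 bases and 49.7% for all genes tested. They comprised Luzp2 (FDR 4.07e-06 by exactTest), Taok1 (0.00194), Fam214a (0.00734) and Grin2a (0.0104), which encodes the GluN2A subunit of NMDA receptors. Uggt2, a glucosyltransferase of glycoprotein quality control, measured 24.5, 25.5, 21.9, 25.1 and 28.7 CPM in the WT and 28.9, 29.9, 31.6, 29.4 and 31.1 CPM in the KO mice. The groups barely stood apart (log2 fold change 0.26, FDR 0.037 by exactTest, 0.508 by edgeR's quasi-likelihood test). Across the 16081 genes with a GC content, fold changes of all genes had a Spearman rho of -0.23 with GC content and of 0.24 with transcript length (-0.14 and 0.17 with the Ttr covariate), and genes of 1 library share its depth and RNA quality, so these are descriptions without a test. With trends on GC content and length removed from each library, 0 genes were called by edgeR's quasi-likelihood test (lowest FDR 0.243), and 530 genes were higher and 508 lower at an unadjusted p under 0.05. The 8 genes of lowest p among higher genes then had log2 fold changes of 0.10 to 0.23. The part of RNA quality was not tested.

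The 5 genes called lower by exactTest that differed most without overlap were Tceanc2, D630039A03Rik, Ptpn18, Rassf9 and 2810002D19Rik. 2810002D19Rik measured 3.59, 3.67, 3.61, 4.34 and 3.82 CPM in the WT and 2.58, 2.23, 2.03, 2.49 and 2.27 CPM in the KO mice. The groups stood well apart, the log2 fold change was -0.71 (SE 0.19, FDR 0.00214 by exactTest, 0.508 by edgeR's quasi-likelihood test) and it was -0.70 with the Ttr covariate. In the Tg-SwDI mice the KO minus WT difference of this gene was -0.56 (SE 0.19, unadjusted p = 0.00726 by edgeR's quasi-likelihood test).

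Tceanc2, a gene with a domain of transcription elongation factors at chr4:107134155-107179116 (mm10), had the largest of these differences and divided the KO mice. It measured 16.4, 16.2, 15.6, 16.9 and 15.9 CPM in the WT mice and 2.49, 2.99, 9.55, 2.35 and 8.89 CPM in KO mice 1, 2, 4, 7 and 8. The WT mice were nearly equal, KO 1, 2 and 7 were far lower, and KO 4 and 8 lay between. The log2 fold change was -1.63 (SE 0.50, FDR 0.00612 by exactTest, 0.508 by edgeR's quasi-likelihood test). Btf3l4, a homologue of a basal transcription factor whose start is 1.68 Mb away and which was picked after its values were seen, measured 39.0, 45.4, 38.5, 45.9 and 40.4 CPM in the WT and 23.7, 21.7, 38.7, 26.5 and 35 CPM in the KO mice. The same KO mice 1, 2 and 7 were low in both genes.

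The Tg-SwDI mice showed a similar split. Tceanc2 measured 16.1, 15.1, 15.1, 17.4 and 16.7 CPM in the WT Tg-SwDI mice and 2.93, 15.4, 2.66, 3.43 and 16.8 CPM in KO Tg-SwDI mice 1, 2, 3, 5 and 8. Btf3l4 measured 23.6, 43.2, 23.9, 24.2 and 55.9 CPM in those KO mice, low in the same animals, against 39.9 to 45.9 CPM in the WT Tg-SwDI mice. Both genes lie on the chromosome of Mir34a, and Btf3l4 is 41.2 Mb from it. Among 25 other tested genes between them, log2 fold changes ran from -0.28 to 0.36. Of these 25, 1 was higher and 4 were lower at an unadjusted p under 0.05, against 3.58% and 4.51% of all genes. Tceanc2 overlaps the end of Tmem59 on the opposite strand, and how the counting treated strand is not given in the sources used here. Genotypes of these mice outside Mir34a were not analysed here.

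**Figure D4:**
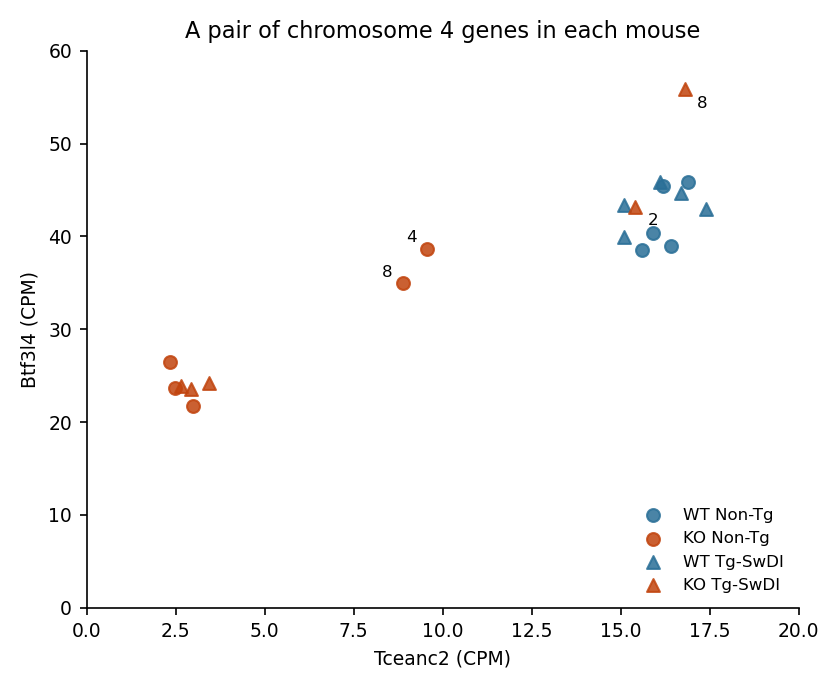
CPM of Btf3l4 (y axis) against CPM of Tceanc2 (x axis) in each of the 20 mice, with WT in blue, KO in red, Non-Tg as circles and Tg-SwDI as triangles, and mouse numbers beside KO mice of higher Tceanc2. All 10 WT mice lie at 15.1 to 17.4 CPM of Tceanc2, while KO mice lie at 2.35 to 3.43, at 8.89 and 9.55, or, for KO Tg-SwDI 2 and 8, at 15.4 and 16.8 CPM.

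Next to the deleted locus, a gene of few counts differed between the groups. Gm13067, a long non-coding RNA gene at chr4:150049013-150056976 chosen with its values in view and lying under the low-count filter, had 0, 1, 0, 0 and 1 counts in the WT and 4, 10, 10, 6 and 9 counts in the KO mice. The groups did not overlap, and without the filter its log2 fold change was 3.90 (FDR 0.0162 by edgeR's quasi-likelihood test). Of 49 tested genes within 2 Mb of Mir34a, 0 were called by edgeR's quasi-likelihood test or by exactTest, 0 were higher and 4 (8.16%) lower at an unadjusted p under 0.05, against 4.51% of all genes lower, and their median log2 fold change was -0.01. The 4 were Fbxo2 (-0.11), an F-box protein, H6pd (-0.25), an enzyme of the endoplasmic reticulum, Gpr157 (-0.50), an orphan receptor, and Slc2a5 (-0.27), the fructose transporter of microglia. Slc2a5 measured 7.89, 7.43, 8.54, 6.94 and 8.20 CPM in the WT and 6.88, 6.16, 6.90, 5.61 and 6.91 CPM in the KO mice, without overlap. Gpr157 measured 2.88, 2.43, 2.72, 2.40 and 3.24 CPM in the WT and 2.49, 1.56, 1.49, 1.25 and 2.85 CPM in the KO mice, where KO 1 and 8 lay within the WT range. Mtor (-0.02), Kif1b (0.09) and Camta1 (0.09), nearby genes of high level, differed by less than their confidence intervals.

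Genes regarded as direct targets of miR-34a were, on balance, neither higher nor lower in its absence. Of 36 listed targets, all of which passed the filter, 0 were called by edgeR's quasi-likelihood test or by exactTest, 19 had positive and 17 negative log2 fold changes, and their median was 0.00, equal to that of all genes. At an unadjusted p under 0.05, 2 were higher (5.56%, against 3.58% of all genes) and 1 lower (2.78%, against 4.51%). Sirt1, the deacetylase most often linked to miR-34a, measured 20.5, 20.7, 20.9, 21.2 and 18.6 CPM in the WT and 22.6, 19.9, 19.7, 21.9 and 20.5 CPM in the KO mice. The groups overlapped, and the 95% confidence interval of the log2 fold change was -0.10 to 0.17. Notch1, a receptor of cell fate signalling, measured 31, 27.9, 24.9, 25.2 and 26.8 CPM in the WT and 27.6, 27.3, 27.1, 23.6 and 25.9 CPM in the KO mice, with an interval of -0.19 to 0.09.

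The members of lowest p were a lipid enzyme, an enzyme of NAD synthesis and a microglial receptor. Acsl4, an acyl-CoA synthetase, averaged 118 CPM in KO and 107 CPM in WT mice (log2 fold change 0.13, FDR 0.556 by edgeR's quasi-likelihood test). Nampt averaged 78.4 and 71.9 CPM (0.13). Trem2, a lipid-sensing receptor of microglia, measured 14.3, 11.1, 11.9, 12.2 and 12.5 CPM in the WT and 10.7, 9.57, 10.1, 9.44 and 10.4 CPM in the KO mice, all of them below the WT mice (log2 fold change -0.30, SE 0.10, FDR 0.508 by edgeR's quasi-likelihood test and 0.0895 by exactTest). Bcl2 (-0.03), Ccnd1 (0.11), Cdk6 (0.04), Met (0.08), Jag1 (-0.06) and Vamp2 (-0.05) were within their errors. Of 12 genes downstream of p53, which acts above miR-34a, 3 had positive and 9 negative values with a median of -0.04, and Phlda3 (-0.18) was the one with p under 0.05 (8.33%, against 4.51% of all genes lower).

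Genes with a target site in the 3'UTR were compared with genes without one. The 8mer site of the seed, CACTGCCA, searched on the sense strand of annotated 3'UTRs, occurred in 985 of the 14734 tested genes with a 3'UTR. Of these, 580 had positive and 405 negative log2 fold changes, with a median of 0.02 against 0.00 for all genes with a 3'UTR, and 65 (6.60%) were higher at an unadjusted p under 0.05 against 3.68% of all genes with a 3'UTR. By exactTest 7 of 972 were called higher (0.72%) and 4 lower (0.412%), against 0.431% of all genes in each direction. Genes with a site had long 3'UTRs, so genes were split into 4 groups of about equal size by 3'UTR length. In the group of longest 3'UTRs (2504 bases and more), 496 genes with a site and 3188 without one both had a median of 0.03, and 9.88% and 9.03% were higher at p under 0.05. In the next group (1371 to 2503 bases) the medians were 0.02 and 0.01, with 4.27% and 2.56%. In the group from 616 to 1370 bases both medians were -0.02, with 0% of 151 genes with a site and 1.42% of the others higher. Among the shortest 3'UTRs, 57 genes with a site had a median of 0.00 and 3636 without one of -0.04, and 7.02% (4 genes) and 1.43% were higher. Whether genes with a site differed within a length group was not tested. Expression, conservation and the accessibility of sites were not considered.

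Microglial genes had mostly negative values in the KO Non-Tg mice, and 0 of them were called by edgeR's quasi-likelihood test. Of 20 genes of disease-associated microglia, 18 had negative log2 fold changes and the median was -0.23. At an unadjusted p under 0.05, 8 (40%) were lower, against 4.51% of all genes, and 0 higher. The study had named 11 members of this list on the Tg-SwDI mice of the same series. Clec7a, a pattern recognition receptor of activated microglia, measured 3.83, 0.793, 1.22, 1.20 and 1.86 CPM in the WT and 0.430, 0.853, 0.530, 0.479 and 0.773 CPM in the KO mice. WT 2 was the highest and WT 3 lay within the KO range, with a log2 fold change of -1.54 (SE 0.42, FDR 0.0299 by exactTest, 0.508 by edgeR's quasi-likelihood test). Tyrobp, the adaptor of Trem2, measured 17.2, 11.7, 13, 13.3 and 12.7 CPM in the WT and 10.5, 10.9, 10.3, 9.88 and 12 CPM in the KO mice, again highest in WT 2 (log2 fold change -0.34, SE 0.11). Without WT 2 the log2 fold changes were -1.04 for Clec7a and -0.24 for Tyrobp, and without WT 2, 4 and 7 they were -0.69 and -0.22. The median of the list was -0.14 without WT 2 and 0.02 without WT 2, 4 and 7, and with the Ttr covariate it was -0.16 with 4 members lower at an unadjusted p under 0.05. WT 2 was also high in Ttr and Cbln3, and the part of neighbouring tissue in its microglial values was not tested.

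Homeostatic microglial genes differed less. Of 18, 14 had negative values with a median of -0.08, and 3 (16.7%) were lower at p under 0.05, against 4.51% of all genes. With the Ttr covariate the median was -0.09 and 0 were lower at p under 0.05. Without WT 2, 4 and 7 the median was 0.02. P2ry12, a purinergic receptor of resting microglia, measured 48.6, 47.4, 46.5, 48.6 and 49.8 CPM in the WT and 51.1, 47.2, 54.3, 50 and 51.2 CPM in the KO mice, and Csf1r, the receptor they need for survival, averaged 105 CPM in both groups. C1qb, a complement component, measured 74.5, 46.0, 52.5, 48.7 and 57.6 CPM in the WT and 48.5, 48.8, 43.8, 42.6 and 44.8 CPM in the KO mice, with WT 2 far above the rest. Of 37 interferon-stimulated genes, 30 had negative values with a median of -0.20, which became -0.02 with the Ttr covariate, -0.03 without WT 7, 0.26 without WT 2, 4 and 7 and -0.55 without KO 1 and 2. In that list Lgals3bp had the lowest p, with 36, 18.4, 44.6, 17.5 and 49.4 CPM in the WT and 22.8, 27.9, 19.7, 14.8 and 17.8 CPM in the KO mice. It ranked like Ttr among the WT mice but not among the KO mice. Of the 37 genes, 0 had a called slope on Ttr.

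Oligodendrocyte genes had slightly negative values with and without the covariate. Of 12 myelin genes, 11 had negative values with a median of -0.13 (-0.16 with the covariate), 3 (25%) were lower at an unadjusted p under 0.05, against 4.51% of all genes, and 4 (33.3%) with the covariate, against 1.84%, and 0 were called by edgeR's quasi-likelihood test or by exactTest. Mbp, a main protein of myelin, measured 3190, 3030, 3300, 3240 and 2910 CPM in the WT and 2540, 2910, 2900, 2830 and 2910 CPM in the KO mice. KO 1 was the lowest and WT 7 met the KO mice (log2 fold change -0.15, SE 0.06). Without KO 1 the median of the list was -0.08, and without WT 2, 4 and 7 it was -0.16. Of 12 astrocyte genes 6 were positive and 6 negative with a median of 0.00, and 10 genes of reactive astrocytes had a median of -0.04.

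Medians of neuronal lists lay between 0.00 and 0.10. The median log2 fold change was 0.10 for 8 genes of dentate granule cells, 0.00 for 8 genes each of CA1 and of CA2 and CA3 pyramidal cells, 0.00 for 12 interneuron genes and 0.01 for 12 hippocampal neuropeptides. In the dentate granule list 7 of 8 values were positive and 2 (25%) had p under 0.05, against 3.58% of all genes higher. With the Ttr covariate the median of this list was 0.05 and 0 members had p under 0.05. Tdo2, an enzyme of tryptophan breakdown expressed by granule cells, measured 3.54, 4.46, 3.99, 4.64 and 4.58 CPM in the WT and 5.40, 6.07, 4.73, 5.80 and 5.41 CPM in the KO mice, without overlap. Of 10 subunits of AMPA and NMDA receptors, 7 were positive with a median of 0.05 and 2 (20%) were higher at p under 0.05, against 3.58% of all genes. With the Ttr covariate the median was 0.01 and 0 were higher at p under 0.05. Without WT 2, 4 and 7 the median was -0.04. Grin2a measured 291, 318, 289, 301 and 295 CPM in the WT and 333, 330, 343, 345 and 332 CPM in the KO mice, all above the WT mice (log2 fold change 0.17, SE 0.06), which became 0.10 with the Ttr covariate. Medians of lists for striatum, thalamus, neocortex, endothelium, mural cells, clock genes, glucocorticoid-responsive genes, the mitochondrial genome and meningeal stroma lay between -0.08 and 0.10. With the covariate they lay between -0.04 and 0.15, apart from meningeal stroma at 0.39. The meningeal list was highest in KO 1, WT 7 and KO 2 by summed CPM (1540, 1490 and 1170), and its median was -0.63 without KO 1 and 2 and 0.44 without WT 2, 4 and 7. The blood list (median 0.47 over 4 genes) changed sign without KO 4.

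Immediate early genes, which neurons transcribe within minutes of activity, had 14 negative of 18 values and a median of -0.25 (-0.23 with the covariate). By edgeR's quasi-likelihood test 4 (22.2%) were lower at an unadjusted p under 0.05, against 4.51% of all genes, and 1 (5.56%) higher, against 3.58%. Npas4, a transcription factor induced by calcium entry, measured 22.1, 29.7, 20.2, 24.5 and 16.3 CPM in the WT and 10.5, 9.57, 12.3, 9.44 and 22.1 CPM in the KO mice. KO 8 lay within the WT range and the other 4 KO mice below it (log2 fold change -0.82, SE 0.26, FDR 0.036 by exactTest, 0.508 by edgeR's quasi-likelihood test). Ccn1, a matricellular protein, measured 8.88, 13.4, 13.4, 9.84 and 7.87 CPM in the WT and 7.46, 7.58, 3.62, 8.01 and 5.27 CPM in the KO mice. Fos overlapped widely, with 8.01 CPM in WT 7 and 6.17 CPM in KO 4 as the lowest mice. Without KO 4 the median of the list was -0.06. It was -0.32 without KO 1 and 2 and -0.45 without WT 2, 4 and 7.

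The same deletion in Tg-SwDI mice gave other values for the genes of lowest p. There the KO minus WT contrast called 239 genes higher (1.48%) and 81 lower (0.503%) at an FDR under 0.05 by edgeR's quasi-likelihood test, and 98 genes (0.608%) had a called difference between the effects with and without the transgene. Of 28 genes named for a low p or an exactTest call in the Non-Tg mice, 11 had a called difference, and in all 11 the fitted effect in Tg-SwDI mice had the opposite sign. These genes were picked by their Non-Tg values, so the Non-Tg side is not an independent estimate. Taok1 differed by 0.24 in Non-Tg and by -0.10 in Tg-SwDI mice (difference of effects -0.34, FDR 0.038 by edgeR's quasi-likelihood test). Slc11a1 differed by -0.63 and 0.39 (1.02, FDR 0.0156). Without WT Non-Tg 2, 4 and 7, 0 of the 28 had a called difference. That fit kept WT 3 and 6 as the only WT Non-Tg mice, so it was less able to call a difference. With the Ttr covariate 3 of the 28 had one.

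Some genes differed in the same direction with and without the transgene. Rbm28 measured 42.0, 40.3, 39.4, 38 and 40.4 CPM in the WT Non-Tg and 35, 35.4, 32.4, 37.7 and 32.5 CPM in their KO counterparts, a log2 fold change of -0.21 (SE 0.05). In Tg-SwDI mice it was -0.30 (SE 0.05, unadjusted p = 2.05e-06 by edgeR's quasi-likelihood test). Tceanc2 (-1.63 and -0.98) and 2810002D19Rik (-0.71 and -0.56) kept their direction as well. The lists of microglial and interferon-stimulated genes had other medians there. Disease-associated microglia stood at -0.23 in Non-Tg and 0.40 in Tg-SwDI mice. There 11 of 20 members were called higher, against 1.48% of all genes, and 6 of 20 had a called difference between the effects, against 0.608%. Interferon-stimulated genes stood at -0.20 and 1.05, with 14 of 37 called higher in Tg-SwDI mice. A called difference between the effects was found for 0 of these 37. The study had named many members of both lists from these same Tg-SwDI mice. The calls there are therefore not independent of the choice of the lists.

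**Figure D5:**
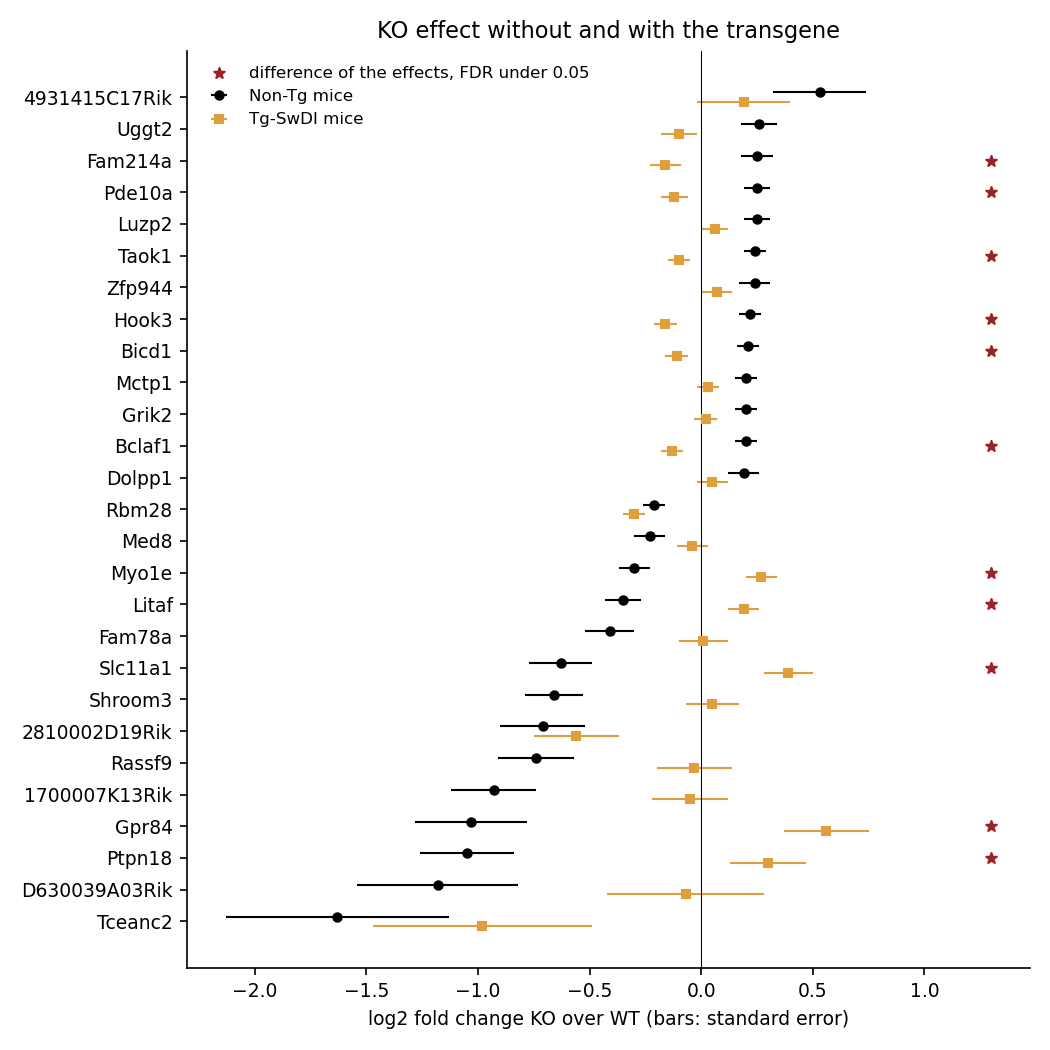
Log2 fold change KO over WT of 27 named genes in Non-Tg mice (black circles) and in Tg-SwDI mice (orange squares), with standard errors as bars, and stars where the difference between the effects had an FDR under 0.05. The 11 starred genes lie on opposite sides of 0, whereas Rbm28, Tceanc2 and 2810002D19Rik lie on the same side (Gh is not drawn).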

How the data were processed

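RNA of the left hippocampus of 20 mice (5 per group, 1 library each) was sequenced as stranded mRNA libraries on the DNBSEQ platform. The authors aligned reads to mm10 with STAR, used FeatureCounts to count them per ENSEMBL gene, and deposited raw read counts without normalization. The strand setting and the treatment of reads matching several genes are not given in the sources used here, so values of overlapping genes and near-identical copies are uncertain. Groups were taken from the labels. The comparison, the gene lists and the tests were chosen with earlier results of these data known.

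Of 39056 genes, 16107 passed edgeR's filterByExpr with the groups as design (at least 10 counts, at least 15 in total) and were normalized by TMM. All 20 mice were fitted in 1 model of group means by edgeR's quasi-likelihood test (edgeR 4.0.16, limma 3.58.1, R 4.3.3, robust dispersions, 16 residual degrees of freedom), with Benjamini-Hochberg adjustment and a threshold of 0.05. The Ttr covariate was the log2 CPM (prior count 2) of each mouse. The exactTest used tagwise dispersions of the 10 Non-Tg mice. CPM are counts scaled to the TMM-adjusted library size, log2 fold changes are KO minus WT, and the Ttr permutation test was exact over mice. Totals of 19929829 to 21066868 counts in the 10 mice leave genes with few counts imprecise.

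Genes named were the 8 of lowest p in each direction of the fit without and with the covariate, the 5 largest exactTest calls without overlap in each direction, the first 4 tested members and the member of lowest p of each list, and tested genes within 2 Mb of Mir34a, with others marked as picked after their values were seen. A gene that this rule names is not reported here. Of 30 lists, the cerebellar one was added after the data were seen. Symbols, positions and 3'UTRs came from GENCODE M21 on GRCm38 (99.5% of identifiers matched), and microRNA sequences from RefSeq. The quasi-likelihood fits without and with the covariate, exactTest and DESeq2 were tested on simulated data, and the other steps were not. Alternatives were DESeq2 1.42.0, exactTest with dispersions of all 20 mice, no filter, library size alone, a common dispersion, the 10 mice alone, GC content and length offsets, a replicate block and each mouse left out.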

Additional observations from a re-analysis of the deposited data

Results flagged for a closer look

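The interval between the highest or lowest mouse and its neighbour, divided by the range of its group of 5, was checked in 120 groups (named genes and list scores), where chance passes the limit of 0.71 in about 1 in 20, and 5 passed. KO Non-Tg 2 stood apart for Gh (ratio 1) and for the score of hypothalamic and pituitary hormones (0.963). For the cerebellar score WT Non-Tg 2 (0.892) and KO Non-Tg 1 (0.81) stood apart, and for the score of hippocampal neuropeptides KO Non-Tg 7 (0.757) did. In KO 2, Gh had 3447 counts, Prl 5214 counts and Pomc 40.9 CPM, while Cbln3 measured 32.4 CPM in KO 1 and 13.7 CPM in WT 2. In the hormone list the median log2 fold change was 1.42, and it was -1.82 without KO 2.

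In 11 genes the interaction of genotype and transgene was called by edgeR's quasi-likelihood test. The Tg-SwDI effect minus the Non-Tg effect on the log2 scale was -0.34 for Taok1, -0.37 for Pde10a, -0.33 for Bclaf1, -0.38 for Hook3, -0.32 for Bicd1 and -0.41 for Fam214a. It was 1.36 for Ptpn18, 0.55 for Litaf, 1.02 for Slc11a1, 0.57 for Myo1e and 1.59 for Gpr84. These genes had been named for their values in the Non-Tg mice. Ttr measured 2900 CPM or more in 4 of 5 WT Tg-SwDI mice and 2010 CPM or more in 4 of 5 KO Tg-SwDI mice, and the part of these levels in the differences was not tested beyond the covariate, with which 3 of the 11 were called.

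Gm13067, which lay under the low-count filter and so outside the main test, had 39 counts summed over the KO and 2 over the WT Non-Tg mice. In KO Tg-SwDI mice it had 3 to 11 counts each and in WT Tg-SwDI mice 0 to 3. The gene ends before the position of Mir34a on chromosome 4.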

How the results depend on the processing

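For the comparison of KO with WT Non-Tg mice (0 genes called), DESeq2 called 7 (2 higher, 5 lower), exactTest with dispersions of all 20 mice 4, no low-count filter 1 (Gm13067, log2 fold change 3.90), the 10 mice alone 1 (Luzp2), and leaving out 1 mouse 0 to 3, namely 1700007K13Rik without WT 6 and Xkr4, Litaf and Zbtb20 without WT 7. With the Ttr covariate the count was 0 under every alternative run. The 134 calls of exactTest became 88 without the filter (30 higher, 58 lower), 359 with a common dispersion (60 and 299), 129 with library size alone (46 and 83), 1 by the quasi-likelihood test on the 10 mice, 33 without WT 2, 4 and 7, and 8 to 309 when 1 mouse was left out. Library size alone moved the median of all genes by -0.01. The Ttr difference of -2.67 ranged from -3.74 to -1.98 when 1 mouse was left out and passed the exact permutation test without WT 6 (-3.74, p = 0.0317). Of the 28 named genes, 11 had a called difference between the effects with and without the transgene, against 3 with the Ttr covariate, 0 without WT 2, 4 and 7, and 3 to 12 when 1 mouse was left out. The fit without WT 2, 4 and 7 kept WT 3 and 6 as the only WT Non-Tg mice. The value of Gh with the covariate, 11.66, ranged from -7.14 to 15.91 when 1 mouse was left out, was reversed without KO 2 (-7.14), and was -7.18 without KO 1 and 2. Without WT 2, 4 and 7, an alternative chosen after seeing the data, the values of Rsph1, Kl and Folr1 were reversed to 0.08, 0.21 and 0.78 (from -0.63, -1.78 and -3.16). These genes were highest in those mice, so an upward shift followed from leaving them out. Other values of named genes kept direction and side of the threshold in 733 cases, lost the call in 62 and gained it in 12. The cause of these changes was not tested.

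Numbers 2, 4 and 7 occurred in both groups, but deviations of same-numbered mice correlated at 0.15, -0.10 and -0.13, and no mouse had its own number as best partner, so the numbers were not taken as pairs. With the replicate number as a block, 0 genes were called without and 0 with the covariate (lowest FDR 0.289 and 0.996 by edgeR's quasi-likelihood test). Of the 28 named genes, 5 had a called difference between the effects. On the 10 mice alone 201 genes were called (31 higher, 170 lower, 40 of them among the 134). That fit set WT 2, 4 and 7 against KO 2, 4 and 7, as no other number occurred in both groups. Those WT mice were the ones high in choroid plexus genes, and the part of that tissue in the 201 calls was not tested. Depth limits genes of few counts, and sites or isoforms below gene level could not be seen.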

Other observations

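Of 10 genes of endoplasmic reticulum proteins looked up after the calls of exactTest were seen, 4 were called lower in KO Non-Tg mice by exactTest and 0 by edgeR's quasi-likelihood test. Called genes led to the choice, so this count is no measure of the compartment, and 0.431% of all genes were called lower. Calr, a calcium-binding lectin chaperone, measured 389, 325, 393, 355 and 348 CPM in WT mice 2, 3, 4, 6 and 7 and 309, 313, 277, 288 and 287 CPM in KO mice 1, 2, 4, 7 and 8. The groups did not overlap, and the log2 fold change was -0.29 (FDR 0.00194 by exactTest, 0.529 by edgeR's quasi-likelihood test). Pdia3 (-0.21, FDR 0.013 by exactTest), Pdia6 (-0.20, 0.021) and Hsp90b1 (-0.18, 0.0305), a pair of disulfide isomerases and a member of the Hsp90 family, were called in the same direction. Hspa5 (-0.23), Pdia4 (-0.21), Sdf2l1 (-0.35), Manf (-0.14), Dnajb11 (-0.10) and the membrane-bound Canx (-0.04), of the same compartment, were not. With the Ttr covariate the fitted values of Calr, Pdia3, Pdia6 and Hsp90b1 were -0.21, -0.14, -0.14 and -0.13, with unadjusted p of 0.0661, 0.0182, 0.0624 and 0.0449 by edgeR's quasi-likelihood test.

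Cryab, a small heat shock protein abundant in glia, measured 112, 93.3, 119, 100 and 93.1 CPM in the WT and 76.5, 81.1, 71.6, 84.3 and 72.0 CPM in the KO mice. Cryab was picked after its values were seen. It had the lowest FDR of the genes that exactTest called lower (0.000148, against 0.508 by edgeR's quasi-likelihood test). The log2 fold change was -0.42, and all KO mice lay below all WT mice. In Tg-SwDI mice the fitted KO effect was 0.17. Cdc42ep1, an effector of the small GTPase Cdc42 that was also picked after its values were seen, measured 27.9, 25.8, 30.2, 25.9 and 26.6 CPM in the WT and 20.9, 19.9, 23.3, 19.8 and 21.6 CPM in the KO mice. Again the groups did not overlap (log2 fold change -0.37, FDR 0.00194 by exactTest, 0.508 by edgeR's quasi-likelihood test).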
